A study of Mus musculus with 12 samples.

Results

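The 40 genes described here serve the response of cells to foreign chemicals and to oxidative stress. They comprise 8 chemical and redox sensors with their partners and regulators, 11 enzymes of oxidation, reduction and hydrolysis, 11 glutathione transferases, 8 antioxidant and heme enzymes and 2 membrane exporters. They were taken by gene symbol from the 27998 genes of 12 single-cell RNA sequencing libraries of the mouse mammary gland, and 39 of the 40 had at least 1 unique molecular identifier (UMI, 1 counted transcript) in the cells examined. These cells were 24839 fibroblasts in 4 subsets and 940 macrophages, out of 46257 cells that passed the quality filters.

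Each library held cells of the fourth mammary glands of female C57BL/6J mice, without lymph nodes, collected at 43 weeks of age and digested with enzymes. In all libraries but that of intact mice (Intact), the ovaries had been depleted of follicles with 4-vinylcyclohexene diepoxide (VCD, 160 mg per kg per day for 15 days from 9 weeks of age), a chemical model of menopause that leaves the animal its ovaries. A layout of 9 libraries crossed 3 hormone treatments, namely vehicle, 17β-estradiol (E2, 1 µg per animal per day for 1 week) and E2 with progesterone (E2 + P4, with 1 mg of P4), with 3 levels of polybrominated diphenyl ethers (PBDEs, flame retardants that persist in tissue). The low level was food with PBDE-47, PBDE-100 and PBDE-153 at 0.05, 0.0028 and 0.0063 mg per kg per day for 20 weeks, begun 100 days after the first VCD injection, and the high level was 1, 0.056 and 0.126 mg per kg per day for 1 week. Since the high level was 20 times the low one and far shorter, dose and duration cannot be told apart. The groups without PBDE, including the intact mice, ate matched food with the solvent DMSO. The remaining libraries were a second VCD vehicle (NormEnv), labelled for possible PBDE from the plastic of the cages, a VCD E2 library with the estrogen receptor antagonist ICI (5 mg once), and the intact mice. Each condition was 1 library, and how many mice it held is not given in the sources used here, so that no p-value here measures the spread between animals of 1 condition.

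Cells meet foreign chemicals with a few sensors. The aryl hydrocarbon receptor (Ahr) binds flat aromatic compounds, pairs with Arnt and switches on Cyp1a1, Cyp1b1, Tiparp and its own repressor Ahrr, whereas the constitutive androstane receptor (Nr1i3) and the pregnane X receptor (Nr1i2) sense many drugs and persistent pollutants, above all in the liver. NRF2 (Nfe2l2) is held down by Keap1 until electrophiles or oxidants arrive, and then raises Nqo1, Gclc, Gclm, Txnrd1, Srxn1, Slc7a11 and, with other factors, Hmox1. Mammary fibroblasts lie within a fat pad that stores lipophilic compounds, and Cyp1b1, which also oxidizes estradiol, is known from mesenchymal cells of many tissues.

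The short motifs through which both sensors act are shown here on the promoters of genes whose levels are followed below. Sequences are from RefSeq on GRCm38.p6, are written 5′ to 3′ on the strand of the gene, and capitals mark the motif. The first 4 hold the core of the xenobiotic response element, GCGTG on either strand, and the last 2 hold the core of the antioxidant response element, TGACNNNGC on either strand.
Cyp1a1 (chr9:57697519-57697603, + strand): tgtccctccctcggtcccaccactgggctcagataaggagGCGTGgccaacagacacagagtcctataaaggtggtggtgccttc
Cyp1b1 (chr17:79715093-79715177, - strand): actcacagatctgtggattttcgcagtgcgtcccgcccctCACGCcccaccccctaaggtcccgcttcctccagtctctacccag
Tiparp (chr3:65528237-65528321, + strand): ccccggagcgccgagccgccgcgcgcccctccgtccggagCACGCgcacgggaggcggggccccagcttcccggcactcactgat
Ahrr (chr13:74292332-74292478, - strand): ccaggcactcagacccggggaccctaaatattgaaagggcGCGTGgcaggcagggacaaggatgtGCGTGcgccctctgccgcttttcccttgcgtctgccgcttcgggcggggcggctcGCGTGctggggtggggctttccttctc
Txnrd1 (chr10:82859074-82859162, + strand): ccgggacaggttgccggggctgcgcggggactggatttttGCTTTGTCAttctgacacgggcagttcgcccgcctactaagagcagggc
Gclm (chr3:122245383-122245471, + strand): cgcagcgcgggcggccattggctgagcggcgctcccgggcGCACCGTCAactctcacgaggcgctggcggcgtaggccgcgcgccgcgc

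Such short cores are common. In windows from 250 bases before to 50 bases after a start site, the xenobiotic core was found in 32.4% of 32851 RefSeq windows and in 19 of 39 windows of the 32 member genes that had one (16 of the 32 genes). The antioxidant core was found in 12.4% of all windows and in 8 of the 39, and the palindromic estrogen response element, GGTCA and TGACC with 3 bases between, in 0.07% of all windows and in 0 of the 39. A match describes letters and not a bound site.

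The libraries held 41737881 to 109224969 UMIs, and the 5 cell populations together 430942133. UMIs were summed per library and population, and levels are given as UMI counts per 1000000 UMIs of that sum (CPM). Because the assay counts transcript ends, CPM can be set beside each other for 1 gene across populations but not between genes. The fibroblast subsets were gated by marker genes that are no members, and were called Dpp4 Pi16 (11248 cells), Fabp4 Lpl (5952), Postn Tnc (3680) and Gdf10 F3 (3959). Csf1r, a macrophage marker, stood at 861 CPM in the macrophages and at 0.860 to 4.01 CPM in the fibroblast subsets, and the adipocyte gene Adipoq at no more than 0.576 CPM in any population. Library names carried 1 of 2 codes, and 5 libraries (Intact, VCD_Vehicle, VCD_E2, VCD_E2_P4 and VCD_Low_PBDE) had the first and 7 the second. In the layout all libraries without PBDE had the first and all with high PBDE the second, so that high PBDE and code cannot be told apart within it. At the low level the library without hormone had the first code and those with E2 and E2 + P4 the second, so that the code followed hormone there. The meaning of the code is not stated. Libraries of the first code also shared 95 to 185 cell barcodes per pair, against 20 or fewer between codes and 2 to 84 within the second code, and 385 cells in the populations had a shared barcode. Results without those cells are among the alternatives.

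The members were expressed unevenly across the populations. With edgeR, each fibroblast subset was compared with the average of the other subsets over the sums of 12 libraries, with the library as a block. Of 35 members tested, 30 passed the threshold (adjusted p under 0.05) in Dpp4 Pi16 fibroblasts against 72.4% of all genes tested, 25 in Fabp4 Lpl (59.2%), 30 in Postn Tnc (60.4%) and 22 in Gdf10 F3 (48.5%). In Gdf10 F3 fibroblasts 20 of these 22 were higher (23.9% of all genes).

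Gdf10 F3 fibroblasts stood out for 3 monooxygenases. Cyp2f2, a cytochrome known from airway Clara cells that oxidizes small aromatic compounds, had its lowest, median and highest level over the 12 libraries at 26.2, 76.5 and 167 CPM in these fibroblasts and did not exceed 5.76 CPM in any library of the other 3 subsets, a log2 fold change of 6.06 ± 0.23 (SE), adjusted p = 2.82e-23. No library overlapped. Fmo2, a flavin monooxygenase, followed with 108, 165 and 274 CPM and 2.55 ± 0.18 (SE), adjusted p = 3.08e-15. Cyp7b1, which hydroxylates oxysterols and steroids, reached 21.1, 32.4 and 75.5 CPM, a log2 fold change of 2.45 ± 0.15 (SE), adjusted p = 4.08e-17.

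Pooled over libraries, Postn Tnc fibroblasts had the highest Ahr of the fibroblasts, with 3.67, 17.9 and 37.9 CPM as lowest, median and highest library and a log2 fold change of 3.37 ± 0.17 (SE), adjusted p = 9.33e-20. Gdf10 F3 fibroblasts read higher in 3 of the 12 libraries, which were VCD_Low_E2_P4, VCD_High_PBDE_E2 and VCD_High_PBDE_E2_P4. The same receptor was nearly missing from Fabp4 Lpl fibroblasts, where it did not exceed 0.642 CPM in any library. Cyp4b1, a cytochrome that oxidizes fatty acids and some protoxins, and Fmo1 were also higher in Postn Tnc fibroblasts, by 1.17 (adjusted p = 3.83e-06) and 1.02 (adjusted p = 1.09e-14) on the log2 scale. Fabp4 Lpl fibroblasts, which carry the fat-handling markers, were led by Cyp4b1 at 1.11 (adjusted p = 2.92e-06), the AhR target Cyp1b1 at 1.05 (adjusted p = 9.31e-13) and the membrane-bound transferase Mgst3 at 0.96 (adjusted p = 1.99e-15). Mgst3 was as high in Gdf10 F3 fibroblasts, at 85.2 CPM pooled over libraries against 84.8 CPM in Fabp4 Lpl. Pooled over libraries, Cyp1b1 read 104 CPM in Fabp4 Lpl, 122 in Gdf10 F3, 75.1 in Postn Tnc and 12.9 in Dpp4 Pi16 fibroblasts. Its receptor Ahr read 0.235, 8.72, 14.7 and 1.62 CPM in the same order of subsets.

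Dpp4 Pi16 fibroblasts were high in Tiparp, a PARP enzyme induced by AhR that feeds back on it. Its levels there were 267, 439.6 and 843 CPM as lowest, median and highest library, against 83.04, 102 and 124 CPM in Fabp4 Lpl fibroblasts, and the log2 fold change was 1.71 ± 0.08 (SE), adjusted p = 9.38e-21. Ephx1, the microsomal epoxide hydrolase, and Gclc, the catalytic subunit of the rate-limiting enzyme of glutathione synthesis, were next at 0.75 (adjusted p = 5.25e-11) and 0.70 (adjusted p = 4.3e-10). Gclc was as high in Gdf10 F3 fibroblasts, at 59.96 CPM pooled over libraries against 59.7 CPM here. The cytochromes were lower in this subset, with log2 fold changes of -2.99 (adjusted p = 4.01e-24) for Cyp1b1, -2.22 (adjusted p = 3.03e-14) for Cyp7b1, -1.82 (adjusted p = 1.95e-09) for Cyp4b1 and -1.43 (adjusted p = 0.000776) for Cyp2f2.

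Macrophages were set against the UMIs of the fibroblast subsets summed per library, again with the library as a block. Dpp4 Pi16 fibroblasts made up the largest part of that sum over the libraries. Of 37 tested, 35 passed the threshold, against 76.7% of all genes, and 8 of them were higher (31.1%) and 27 lower (45.6%). Slc7a11, the cystine importer that feeds glutathione synthesis, read 0, 58.2 and 201 CPM over the libraries as lowest, median and highest, and did not exceed 2.93 CPM in any fibroblast library. It passed the filter on low counts here but not in the fit of the fibroblast subsets, so that it entered through the macrophages, where it is high, and no test is given for it. Ahrr likewise passed the filter here but not in the fit of the fibroblast subsets, and both are among the 37 tested and the 8 higher. Ahrr also passed it in the interaction tests between the fibroblast subsets given below, on the layout libraries. The macrophage library at 0 for Slc7a11 was VCD_E2_ICI, so that 1 library overlapped the fibroblasts. Hmox1, the heme oxygenase with which macrophages recycle heme, was at 857, 1498 and 1816 CPM and 3.17 ± 0.12 (SE), adjusted p = 4.43e-17. Ahr came next at 3.09 ± 0.16 (SE), adjusted p = 2.25e-14. Collagen and decorin transcripts, which macrophages should lack, stood in them at 1.40% of the fibroblast level, whereas these 3 members were higher in macrophages than in any fibroblast subset. Gpx3 at 2.40%, Gstm2 at 1.94% and Aox1 at 1.39% of the fibroblast level were near the level of the collagens and were not read as expressed. The macrophage gate itself limits collagen and decorin UMIs, so that the 1.40% also depends on the gate.

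Some members with low fibroblast levels were plentiful elsewhere in the gland, in small groups of cells pooled over the libraries. Nqo1, the quinone reductase, read 51.3 CPM in endothelial cells against 2.64 CPM in the fibroblasts, and the exporter Abcg2 243 against 21.4 CPM. Gsta4, the transferase that clears lipid aldehydes, read 155 CPM in luminal epithelial cells against 3.74 CPM. Ahr read 44.2 CPM in endothelial, 41.3 in luminal epithelial and 39.5 in T and NK cells, against 35.04 in macrophages and 3.97 in the fibroblasts. Cyp4b1 read 310 CPM in endothelial cells against 38.1 CPM in the fibroblasts. These values have no test. The marker sums of luminal, macrophage and endothelial cells in the fibroblast subsets reached at most 188, 114 and 29.8 CPM in any library. The red cell markers, 4 hemoglobin genes, varied more. Their lowest and highest libraries were 10.3 and 1455 CPM in Dpp4 Pi16 and 15.8 and 853 CPM in Fabp4 Lpl fibroblasts. In Postn Tnc they were 10.5 and 2919 CPM, and in Gdf10 F3 8.91 and 1516 CPM.

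**Figure D1:**
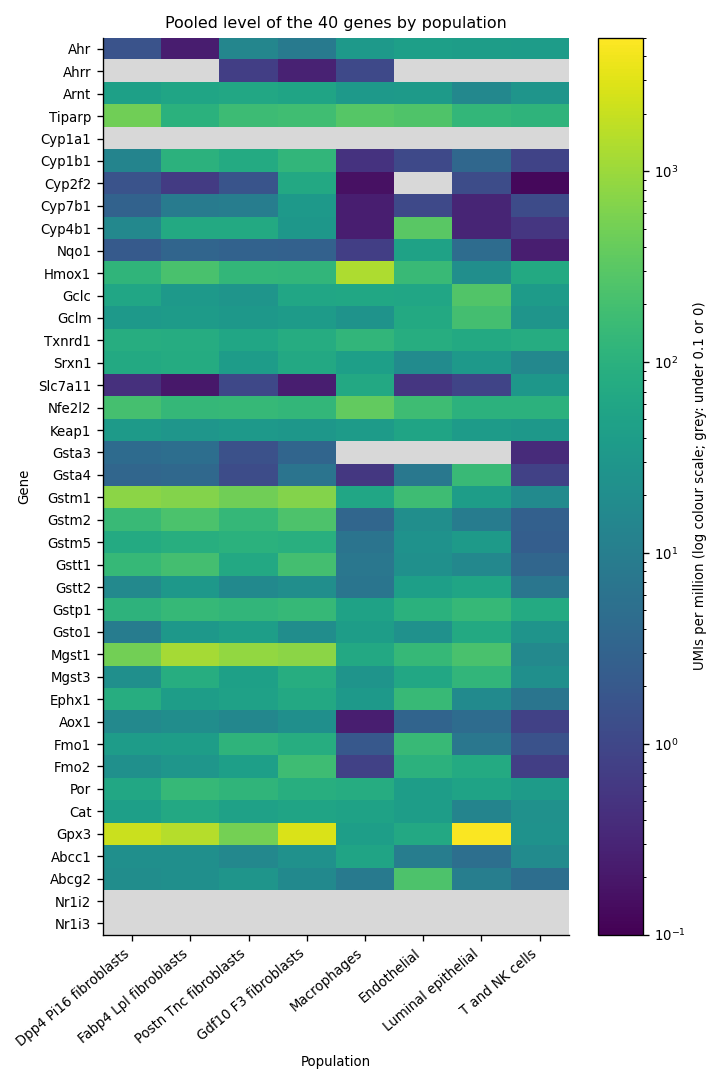
Colour map of the 40 members (rows) in 8 populations (columns), as CPM of UMIs summed over the 12 libraries on a log colour scale, with grey for values under 0.1 CPM or 0. Among the fibroblasts Cyp2f2 and Fmo2 are highest in Gdf10 F3, and Slc7a11 and Hmox1 are higher in macrophages than in any fibroblast subset.

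The low and high PBDE libraries against those without PBDE address whether the pollutant changes these genes. At the low dose no member moved past the threshold in any population. The comparison took the 3 hormone treatments as blocks, 1 fit per population, with 4 residual degrees of freedom, and 36, 33, 34, 35 and 21 members passed the filter on low counts in Dpp4 Pi16, Fabp4 Lpl, Postn Tnc and Gdf10 F3 fibroblasts and in macrophages, 159 pairs of a member and a population. Low PBDE gave 0 of 159 pairs at an adjusted p under 0.05 (0.00178% of all pairs of a gene and a population), with a smallest adjusted p of 0.955. The genes called were 0.00839% of those tested in Fabp4 Lpl fibroblasts and 0% elsewhere. At an unadjusted p under 0.05 there were 12 pairs (7.55%, against 3.39% of all), and DESeq2 called 0. By role, the median log2 fold change at the low dose was 0.06 for the sensors and regulators, 0.07 for the oxidizing and reducing enzymes, -0.04 for the glutathione transferases and 0.13 for the antioxidant and heme enzymes.

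High PBDE likewise gave 0 of 159 pairs with edgeR (0.139% of all pairs), with a smallest adjusted p of 0.0724 for Gstp1 in Fabp4 Lpl fibroblasts. Of all genes 0.0622, 0.336, 0.0432, 0.112 and 0.148% were called in Dpp4 Pi16, Fabp4 Lpl, Postn Tnc and Gdf10 F3 fibroblasts and macrophages. At an unadjusted p under 0.05 there were 34 pairs (21.4%, against 15.1% of all). They were 16 of 48 pairs of glutathione transferases, 11 of 37 of antioxidant and heme enzymes, 4 of 41 of oxidizing and reducing enzymes, 3 of 24 of sensors and 0 of 9 of exporters. DESeq2 called 7 pairs of 4 members, which were Gstp1 in the 4 fibroblast subsets, Tiparp and Gstm1 in Dpp4 Pi16 and Cat in Postn Tnc fibroblasts. Leaving out VCD_High_PBDE gave 1 edgeR call (Gsta3 in Fabp4 Lpl), as did leaving out VCD_High_PBDE_E2_P4 (Gstp1 in Gdf10 F3). Without the filter on low counts edgeR called 6 pairs, which were Gstp1 in Fabp4 Lpl, Postn Tnc and Gdf10 F3, Gstm1 in Dpp4 Pi16 and Cat in Postn Tnc fibroblasts, and Slc7a11 in macrophages. These calls were not made by the main test. The shares of all genes called under these alternatives are not given here, so that the counts stand without a background.

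The sensors themselves are described first. In all that follows, 3 values in a row are those without hormone, with E2 and with E2 + P4. Ahr in Postn Tnc fibroblasts read 23.1, 16.03 and 5.17 CPM without PBDE, 28.1, 16.1 and 6.11 CPM at the low dose and 23.7, 8.42 and 3.67 CPM at the high dose, and 37.9, 22.5 and 19.8 CPM in the NormEnv, ICI and intact libraries. At each PBDE level the E2 + P4 library was the lowest. In Gdf10 F3 fibroblasts Ahr read 11.9, 9.83 and 4.98 CPM without PBDE, 13.4, 7.01 and 7.03 CPM at the low dose and 9.94, 10.9 and 5.05 CPM at the high dose, and 14.9, 6.48 and 5.48 CPM in the NormEnv, ICI and intact libraries. The 3 PBDE levels overlapped. Macrophage Ahr was 62.7, 24.96 and 36.1 CPM without PBDE, 36.1, 40.1 and 28.9 CPM at the low dose and 58.5, 25.2 and 25.02 CPM at the high dose, and 18.5, 32.9 and 54.6 CPM in the NormEnv, ICI and intact libraries. The vehicle libraries of macrophages read 62.7 and 18.5 CPM, a wider gap as a ratio than that of any PBDE library from its control. Dpp4 Pi16 fibroblasts held few Ahr counts, with 1.74, 1.63 and 0.931 CPM without PBDE, 3.22, 1.91 and 0.911 CPM at the low dose and 2.89, 1.33 and 0.517 CPM at the high dose, and 1.17, 1.43 and 1.03 CPM in the NormEnv, ICI and intact libraries. Ahr had log2 fold changes at the low dose, with their 95% intervals, of 0.17 (-0.23 to 0.58) in Postn Tnc, 0.05 (-0.44 to 0.53) in Gdf10 F3, -0.07 (-0.62 to 0.48) in macrophages and 0.39 (-0.29 to 1.06) in Dpp4 Pi16. With high PBDE they were -0.53 (-0.99 to -0.07) in Postn Tnc, -0.07 (-0.65 to 0.51) in Gdf10 F3, -0.22 (-0.82 to 0.38) in macrophages and -0.03 (-0.76 to 0.70) in Dpp4 Pi16. None passed the threshold, and over these populations the smallest adjusted p of Ahr with edgeR was 0.295.

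Ahrr, the repressor that AhR induces, was counted too rarely to follow. It reached 10 UMIs in a single library, VCD_Low_PBDE in Postn Tnc fibroblasts, with 14 UMIs or 3.51 CPM (exact Poisson 95% interval 1.92 to 5.90), against 8 UMIs or 1.63 CPM (0.705 to 3.22) in its vehicle. These intervals overlap and, like all intervals and floors from counts here, cover counting error only. The other layout libraries of that subset lay between 0 and 1.35 CPM.

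Cyp1a1, the classical AhR target, had 0 UMIs of 430942133 in the 5 populations, which allows up to 0.00696 CPM at 3 counts over all of them. The pregnane X receptor Nr1i2 had 4 UMIs and the constitutive androstane receptor Nr1i3 had 10, and neither reached 10 UMIs in any library of a population. A difference by PBDE was not detectable for these genes at this depth.

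Tiparp in Dpp4 Pi16 fibroblasts read 429, 342 and 267 CPM without PBDE, 843, 402 and 321 CPM at the low dose and 632, 665 and 509 CPM at the high dose, and 512, 392 and 451 CPM in the NormEnv, ICI and intact libraries. Every low and high value lay above the value without PBDE at the same hormone treatment, and the NormEnv vehicle lay between the other vehicle and the PBDE libraries without hormone. How many of all genes lay to 1 side of their controls in this way was not counted. The log2 fold change was 0.54 (95% interval 0.04 to 1.04, adjusted p = 0.955) at the low dose and 0.82 (95% interval 0.33 to 1.32, adjusted p = 0.12) at the high dose, and neither passed the threshold. With DESeq2 the high dose gave 0.82 (adjusted p = 0.00291). Over 20 alternatives the adjusted p at the high dose ran from 0.00291 to 0.329. With both vehicle libraries and the name code as a term, the log2 fold change was 0.95 (adjusted p = 0.189). The high dose without hormone lay 0.30 above NormEnv on the log2 scale, a pair of 1 name code, and NormEnv lay 0.26 above the other vehicle.

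In the other populations the intervals of the Tiparp changes span 0. Fabp4 Lpl fibroblasts read 111, 108 and 98.1 CPM without PBDE, 96.2, 105 and 117 CPM at the low dose and 91.1, 99.8 and 124 CPM at the high dose, and 83.04, 95.4 and 107 CPM in the NormEnv, ICI and intact libraries. Postn Tnc fibroblasts read 167, 184 and 128 CPM without PBDE, 153, 208 and 146 CPM at the low dose and 159, 172 and 166 CPM at the high dose, and 199, 162 and 183 CPM in the NormEnv, ICI and intact libraries. In both subsets the PBDE levels overlapped. Gdf10 F3 fibroblasts read 175, 154 and 162 CPM without PBDE, 212, 170.1 and 196 CPM at the low dose and 173, 175 and 233 CPM at the high dose, and 169.5, 153 and 214 CPM in the NormEnv, ICI and intact libraries. Macrophages read 312, 256 and 261 CPM without PBDE, 259.7, 296 and 254 CPM at the low dose and 238, 425 and 342 CPM at the high dose, and 279, 232 and 261 CPM in the NormEnv, ICI and intact libraries. The PBDE levels overlapped here too. Tiparp had log2 fold changes at the low dose, with their 95% intervals, of -0.02 (-0.27 to 0.23) in Fabp4 Lpl, 0.06 (-0.22 to 0.34) in Postn Tnc, 0.23 (-0.06 to 0.51) in Gdf10 F3 and -0.0047 (-0.38 to 0.37) in macrophages. With high PBDE they were -0.11 (-0.36 to 0.15) in Fabp4 Lpl, -0.0029 (-0.29 to 0.28) in Postn Tnc, 0.21 (-0.08 to 0.50) in Gdf10 F3 and 0.29 (-0.09 to 0.67) in macrophages. None passed the threshold, and over these populations the smallest adjusted p of Tiparp with edgeR was 0.496. Whether the effect of PBDE differed between the 4 fibroblast subsets was tested as an interaction. For low PBDE 0 of 36 members passed the threshold (0% of all genes; 0 at an unadjusted p under 0.05) and for high PBDE 0 of 36 (0.0152% of all genes; 6 at an unadjusted p under 0.05). For Tiparp at the high dose the adjusted p was 0.246, against 0.0224 with DESeq2 and 0.011 without the VCD_Low_PBDE library.

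Cyp1b1, an AhR target, passed the filter in every fibroblast subset. Its values in Fabp4 Lpl fibroblasts were 92.6, 99.8 and 65.1 CPM without PBDE, 118, 101 and 89.3 CPM at the low dose and 142, 92.5 and 97.9 CPM at the high dose, and 116, 134 and 109 CPM in the NormEnv, ICI and intact libraries. Gdf10 F3 fibroblasts gave 118, 116 and 90.03 CPM without PBDE, 169, 88.6 and 109 CPM at the low dose and 145, 153 and 140.3 CPM at the high dose, and 123, 168 and 132 CPM in the NormEnv, ICI and intact libraries. In the latter the E2 library at the low dose lay below its control, whereas the other 2 low libraries lay above theirs. Postn Tnc fibroblasts gave 55.3, 100.1 and 52.3 CPM without PBDE, 71.3, 101 and 63.2 CPM at the low dose and 111, 79.5 and 66.1 CPM at the high dose, and 77.4, 116 and 77.5 CPM in the NormEnv, ICI and intact libraries. Dpp4 Pi16 fibroblasts gave 10.5, 11.6 and 12.4 CPM without PBDE, 22.9, 10.97 and 12.9 CPM at the low dose and 7.42, 9.66 and 14.99 CPM at the high dose, and 8.65, 17.1 and 11.1 CPM in the NormEnv, ICI and intact libraries. There 1 library, VCD_Low_PBDE, stood above all others of the layout. Cyp1b1 had log2 fold changes at the low dose, with their 95% intervals, of 0.25 (-0.03 to 0.54) in Fabp4 Lpl, 0.15 (-0.25 to 0.54) in Gdf10 F3, 0.19 (-0.24 to 0.62) in Postn Tnc and 0.44 (-0.30 to 1.17) in Dpp4 Pi16. With high PBDE they were 0.28 (-0.0073 to 0.57) in Fabp4 Lpl, 0.42 (0.02 to 0.82) in Gdf10 F3, 0.24 (-0.20 to 0.68) in Postn Tnc and -0.14 (-0.91 to 0.63) in Dpp4 Pi16. None passed the threshold, and over these populations the smallest adjusted p of Cyp1b1 with edgeR was 0.327.

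Nqo1, a target of both AhR and NRF2, had few counts in every fibroblast subset. Its values in Postn Tnc fibroblasts were 0.817, 1.41 and 3.17 CPM without PBDE, 3.77, 1.59 and 3.43 CPM at the low dose and 3.20, 2.86 and 5.63 CPM at the high dose. Each high PBDE library there lay more than 1.5-fold above its control, which 1.5% of all genes in that subset also did in 1 direction or the other. The NormEnv vehicle read 5.80 CPM (11 UMIs, interval 2.89 to 10.4) and the other vehicle 0.817 CPM (4 UMIs, interval 0.222 to 2.09), a wider gap than that of any pair with PBDE. Dpp4 Pi16 fibroblasts read 2.53, 2.27 and 1.99 CPM without PBDE, 1.43, 2.16 and 2.26 CPM at the low dose and 2.01, 2.42 and 3.77 CPM at the high dose. Fabp4 Lpl fibroblasts had 2.13, 4.84 and 3.92 CPM without PBDE, 2.35, 4.02 and 3.90 CPM at the low dose and 3.08, 3.90 and 9.30 CPM at the high dose. Gdf10 F3 fibroblasts had 3.37, 1.86 and 2.42 CPM without PBDE, 2.30, 3.37 and 2.48 CPM at the low dose and 4.97, 3.05 and 5.05 CPM at the high dose. The highest of these values was that of VCD_High_PBDE_E2_P4 in Fabp4 Lpl fibroblasts. Nqo1 had log2 fold changes at the low dose, with their 95% intervals, of 0.64 (-0.31 to 1.58) in Postn Tnc, -0.21 (-0.81 to 0.39) in Dpp4 Pi16, -0.10 (-0.75 to 0.56) in Fabp4 Lpl and 0.13 (-0.67 to 0.94) in Gdf10 F3. With high PBDE they were 1.04 (0.09 to 2.00) in Postn Tnc, 0.25 (-0.36 to 0.86) in Dpp4 Pi16, 0.38 (-0.30 to 1.06) in Fabp4 Lpl and 0.76 (-0.10 to 1.63) in Gdf10 F3. None passed the threshold, and over these populations the smallest adjusted p of Nqo1 with edgeR was 0.31.

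Hmox1 passed the filter in all 5 populations. In macrophages it read 1325, 1268 and 857 CPM without PBDE, 1649, 1571 and 1077 CPM at the low dose and 1489, 1651 and 877 CPM at the high dose, and 1816, 1507 and 1751 CPM in the NormEnv, ICI and intact libraries. In Fabp4 Lpl fibroblasts Hmox1 was 166, 253 and 199 CPM without PBDE, 205, 327 and 332 CPM at the low dose and 139, 242 and 303 CPM at the high dose, and 129, 176 and 222 CPM in the NormEnv, ICI and intact libraries. Each low PBDE library lay above its control in both populations. Dpp4 Pi16 fibroblasts had 78.4, 147 and 105 CPM without PBDE, 119, 167 and 130.00 CPM at the low dose and 85.6, 60.1 and 72.7 CPM at the high dose, and 75.7, 93.98 and 250.4 CPM in the NormEnv, ICI and intact libraries. The highest Hmox1 of that subset was in the intact mice. Postn Tnc fibroblasts had 98.8, 129.9 and 121 CPM without PBDE, 112, 142 and 150.1 CPM at the low dose and 95.4, 162 and 121 CPM at the high dose, and 82.7, 109 and 126 CPM in the NormEnv, ICI and intact libraries. Gdf10 F3 fibroblasts held 120.3, 118 and 107 CPM without PBDE, 157, 143 and 139.5 CPM at the low dose and 91.1, 123 and 110.03 CPM at the high dose, and 78.2, 116 and 143 CPM in the NormEnv, ICI and intact libraries. In these 3 subsets, too, each low PBDE library lay above its control, and populations taken from the same libraries are not independent. How many of all genes lay to 1 side of their controls in this way was not counted. With E2 and with E2 + P4 the low library and its control also differ in name code. Hmox1 had log2 fold changes at the low dose, with their 95% intervals, of 0.34 (0.08 to 0.61) in macrophages, 0.44 (0.14 to 0.75) in Fabp4 Lpl, 0.36 (-0.14 to 0.86) in Dpp4 Pi16, 0.19 (-0.07 to 0.46) in Postn Tnc and 0.34 (0.07 to 0.62) in Gdf10 F3. With high PBDE they were 0.20 (-0.07 to 0.46) in macrophages, 0.01 (-0.30 to 0.33) in Fabp4 Lpl, -0.57 (-1.07 to -0.06) in Dpp4 Pi16, 0.03 (-0.24 to 0.29) in Postn Tnc and -0.12 (-0.40 to 0.17) in Gdf10 F3. None passed the threshold, and over these populations the smallest adjusted p of Hmox1 with edgeR was 0.22.

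The rest of the NRF2 branch is given by its ranges over the fibroblast subsets. At the high dose the log2 fold change ran from 0.07 to 0.37 for NRF2 itself (Nfe2l2), from 0.02 to 0.08 for Keap1, from -0.14 to 0.09 for Gclc and from -0.37 to -0.05 for its partner subunit Gclm. For the thioredoxin reductase Txnrd1 it ran from -0.40 to 0.16 and for the sulfiredoxin Srxn1 from -0.04 to 0.44. At the low dose the same 6 genes ran from 0.09 to 0.26, -0.07 to 0.02, -0.11 to 0.20, -0.25 to 0.19, -0.02 to 0.30 and 0.19 to 0.54. None passed the threshold at either dose.

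**Figure D2:**
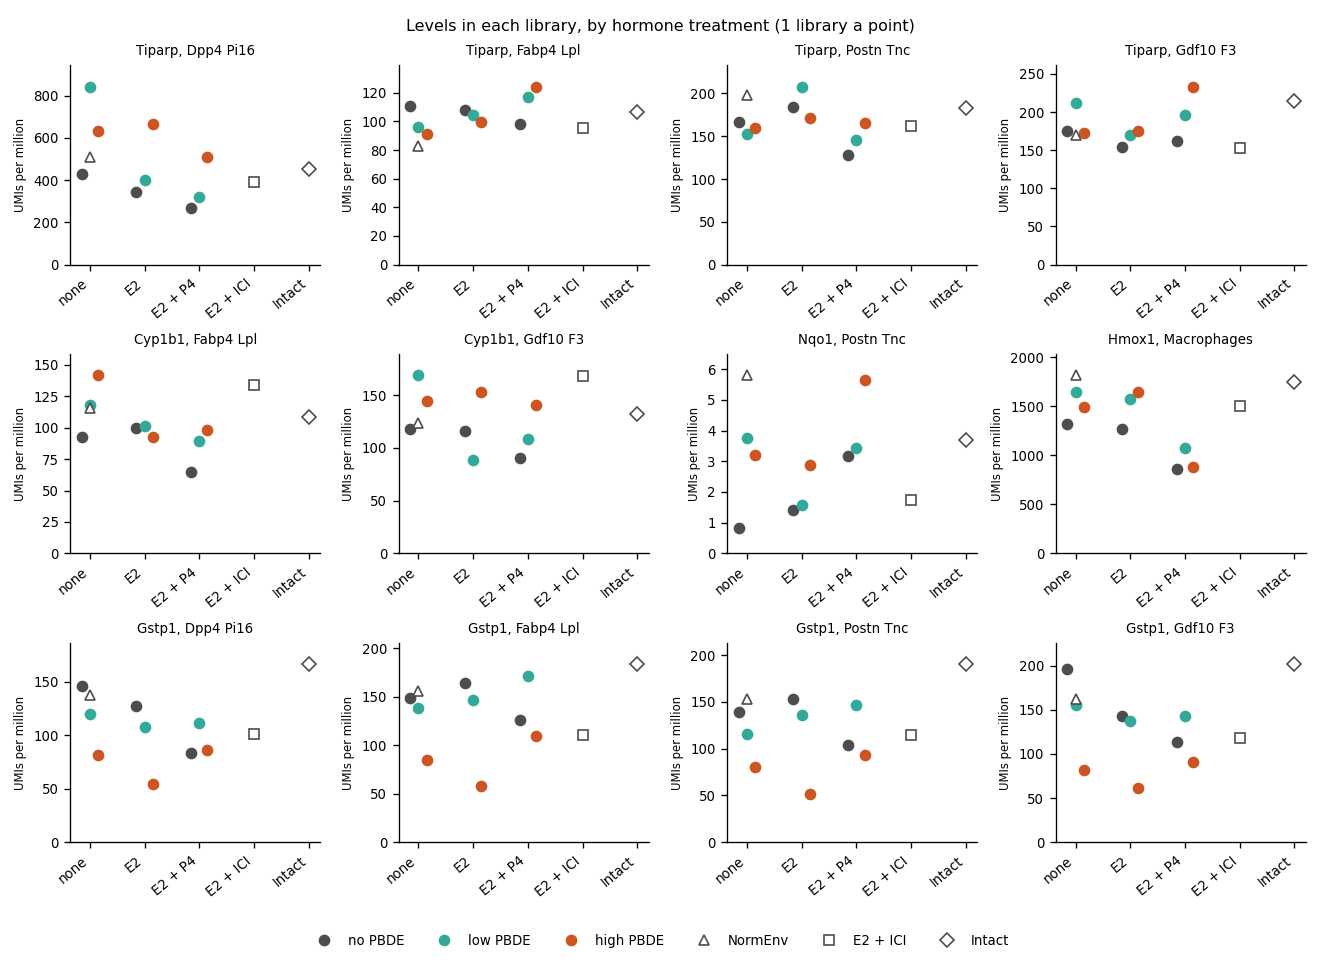
Levels (CPM of UMIs, vertical axes from 0) of Tiparp, Cyp1b1, Nqo1, Hmox1 and Gstp1 in named populations, by hormone treatment, with 1 point per library and its PBDE level by colour. Open symbols are the NormEnv, ICI and intact libraries. Tiparp points with PBDE lie above those without PBDE at the same hormone treatment in Dpp4 Pi16 fibroblasts, and Hmox1 points of the PBDE levels overlap in macrophages.

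Gstp1, a glutathione transferase that conjugates electrophiles, had the smallest adjusted p of the members at the high dose. It was chosen after its values were seen, as were Gstm1, Gsta3, Cat and Slc7a11. In Fabp4 Lpl fibroblasts Gstp1 read 149, 164 and 126 CPM without PBDE, 139, 147 and 171 CPM at the low dose and 85.2, 57.8 and 109 CPM at the high dose, and 156, 111 and 184 CPM in the NormEnv, ICI and intact libraries. The Gdf10 F3 values were 197, 143 and 113 CPM without PBDE, 156, 138 and 143 CPM at the low dose and 81.6, 61.5 and 91.3 CPM at the high dose, and 163, 118 and 202 CPM in the NormEnv, ICI and intact libraries. In both subsets every high value lay below its control, and the E2 + P4 library came closest to it. The share of all genes with every high value on 1 side was not counted. In Dpp4 Pi16 fibroblasts the E2 + P4 pair read 85.8 CPM with high PBDE and 83.2 CPM without, and in macrophages 56.5 and 37.1 CPM, so that there the high library lay above its control. The log2 fold changes at the high dose were -0.92 (-1.34 to -0.51) in Fabp4 Lpl, -0.96 (-1.34 to -0.58) in Gdf10 F3, -0.92 (-1.41 to -0.43) in Postn Tnc and -0.68 (-1.13 to -0.23) in Dpp4 Pi16, with edgeR adjusted p of 0.0724, 0.101, 0.152 and 0.133. With DESeq2 they were -0.93 (adjusted p = 0.000143), -0.96 (adjusted p = 7.56e-05), -0.92 (adjusted p = 0.00408) and -0.68 (adjusted p = 0.0178) in the same order. Over 20 alternatives the adjusted p in Fabp4 Lpl fibroblasts ran from 0.000143 to 0.235, and with both vehicles and the name code as a term the log2 fold change was -1.02 (adjusted p = 0.123). At the low dose the log2 fold changes of the 4 subsets lay between -0.04 and 0.03. Of the stretches of 90 bases at the end of Gstp1 transcripts, 69.5% also occur in Gstp2 or a pseudogene, so that the counts of this gene are uncertain.

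Gstm1 and Cat were also called by DESeq2 at the high dose, both higher, as they were by edgeR without the filter on low counts (adjusted p = 0.0424 and 0.0069). Gstm1 in Dpp4 Pi16 fibroblasts read 711, 632 and 638 CPM without PBDE, 732, 645 and 756 CPM at the low dose and 908, 952 and 907 CPM at the high dose, a log2 fold change of 0.47 (95% interval 0.28 to 0.67, adjusted p = 0.0775) with edgeR and 0.47 (adjusted p = 0.000504) with DESeq2. Catalase (Cat), which breaks down hydrogen peroxide, read 43.9, 45.8 and 32.2 CPM without PBDE, 44.7, 49.2 and 40.6 CPM at the low dose and 69.8, 61.97 and 65.4 CPM at the high dose in Postn Tnc fibroblasts, with 0.64 (95% interval 0.35 to 0.92, adjusted p = 0.127) and 0.63 (adjusted p = 0.0417). In both cases all 3 high values lay above their controls, given without the share of all genes that did so. The NormEnv vehicle read 732 CPM for Gstm1 in Dpp4 Pi16 and 59.01 CPM for Cat in Postn Tnc fibroblasts. With both vehicles and the name code as a term the log2 fold changes were 0.43 (adjusted p = 0.176) and 0.32 (adjusted p = 0.474). Gsta3, another glutathione transferase, had few counts in Fabp4 Lpl fibroblasts, with 2.86, 7.20 and 8.72 CPM without PBDE, 4.36, 5.95 and 4.48 CPM at the low dose and 3.98, 0.974 and 0.744 CPM at the high dose. Its log2 fold change at the high dose was -1.44 (95% interval -2.68 to -0.19, adjusted p = 0.258), and -3.03 (adjusted p = 0.0469) without VCD_High_PBDE, the 1 high library that lay above its control. In macrophages the cystine importer Slc7a11 read 56.4, 37.4 and 71.2 CPM without PBDE, 97.9, 101 and 59.98 CPM at the low dose and 15.7, 38.5 and 25.8 CPM at the high dose, with 7, 29 and 32 UMIs at the high dose, and 96.5, 0 and 201 CPM in the NormEnv, ICI and intact libraries. The high and control values overlapped, and with E2 they were nearly level. Its log2 fold change at the high dose was -0.99 (95% interval -1.70 to -0.27, adjusted p = 0.392), and -1.01 (adjusted p = 0.00467) without the filter on low counts.

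Single pairs of libraries had no test and are counted by a 1.5-fold difference in CPM. At the low dose 66 of 477 values of a member, population and hormone treatment differed by that much (13.8%, against 12.2% of all genes), and at the high dose 113 of 477 (23.7%, against 19.2%). Between the 2 vehicle libraries, which differ neither in hormone nor in added PBDE, 26 of 159 did (16.4%, against 16.5%). These 2 libraries do differ in name code, and NormEnv is labelled for possible PBDE from the cages. The low dose pair without hormone lies within 1 code. By pair and population, Dpp4 Pi16 without hormone at the low dose had 12 of 36 members (33.3%, against 14.4%), 5 up and 7 down, while 3 of 36 passed with E2 (9.13%) and 3 of 36 with E2 + P4 (7.39%). At the high dose with E2, 14 of 35 members passed in Gdf10 F3 (20.9% of all genes) and 13 of 36 in Dpp4 Pi16 (18.9%). Without hormone these were 3 of 35 in Gdf10 F3 (18.7%) and 6 of 36 in Dpp4 Pi16 (14.3%), and with E2 + P4 they were 6 of 35 (18.8%) and 8 of 36 (14%). Within the second name code, high PBDE without hormone against NormEnv gave 4 of 36 in Dpp4 Pi16 (11.7%), 2 of 33 in Fabp4 Lpl (11.9%), 10 of 34 in Postn Tnc (25.4%) and 3 of 35 in Gdf10 F3 fibroblasts (18.1%), and 9 of 21 in macrophages (32.9%). Over both doses and the 5 populations, 2 of 318 values of a member passed in 1 direction at all 3 hormone treatments (0.956% of all genes). These were Nqo1, given above, and Cyp2f2, which lay below its control at each hormone treatment at the low dose in Dpp4 Pi16 fibroblasts (0.311% of all genes) with 1.66, 0.932 and 5.76 CPM without PBDE, 0.146, 0.463 and 2.08 CPM at the low dose and 0.566, 0 and 4.87 CPM at the high dose. The NormEnv vehicle read 0.425 CPM (8 UMIs), a log2 ratio to the other vehicle of -1.91, against -3.37, -0.97 and -1.46 for the low dose pairs without hormone, with E2 and with E2 + P4.

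**Figure D3:**
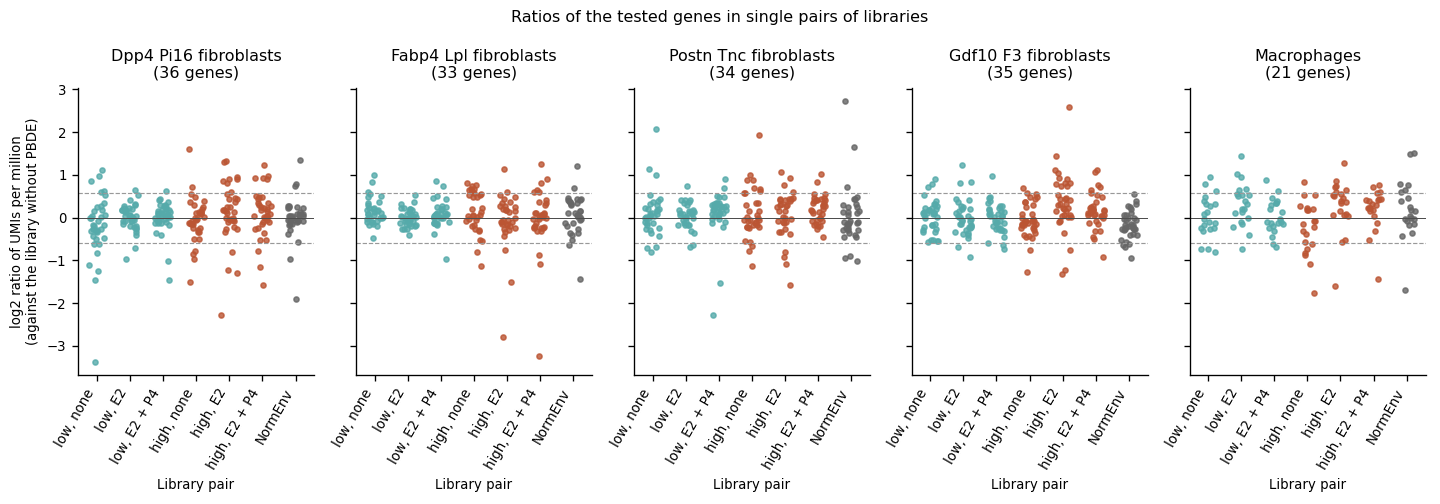
Log2 ratio of CPM (vertical axis) of each tested member in single pairs of libraries, 1 panel per population, for the low and the high dose at each hormone treatment against the library without PBDE, and for NormEnv against the other vehicle. Dashed lines mark 1.5-fold, past which 12 of 36 members lie in Dpp4 Pi16 fibroblasts at the low dose without hormone and 14 of 35 in Gdf10 F3 fibroblasts at the high dose with E2.

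Under E2, 34 pairs of a member and a population passed the threshold, in 20 members, and falls in Postn Tnc fibroblasts made up 11 of them. E2, with or without P4, against no hormone was tested in the same fits with the 3 PBDE levels as blocks. The 34 were 21.4% of 159 pairs, against 11.9% of all pairs of a gene and a population, 14 higher and 20 lower. DESeq2 called 37, given without its share of all genes. Without VCD_Low_PBDE, the low dose library that has the first name code, the edgeR count was 17. In Dpp4 Pi16 fibroblasts 8 of 36 members passed (10.7% of all genes), and 6 rose (5.66%) and 2 fell (5.04%). Of 33 members in Fabp4 Lpl 9 passed (9.98%), and 4 rose (5.6%) and 5 fell (4.38%). Of 34 in Postn Tnc 13 passed (32.9%), and 2 rose (16.8%) and 11 fell (16.1%). Of 35 in Gdf10 F3 3 passed (2.54%), and 1 rose (1.82%) and 2 fell (0.721%). Of 21 in macrophages 1 passed (0.32%) and rose (0.271%). The share called in Postn Tnc fibroblasts was near that of all genes there. The NormEnv vehicle, which has no hormone and is not in these fits, lay within the range of the 6 hormone libraries of the layout for 14 of the 34 pairs. For 9 of these it lay outside the range of the 3 libraries without hormone, which were Ahr, Gstm2 and Txnrd1 in Dpp4 Pi16, Gstm1 and Txnrd1 in Fabp4 Lpl, Gstt2 and Txnrd1 in Postn Tnc, Gstm1 in Gdf10 F3 and Gpx3 in macrophages. Neither count was made over all genes called for E2. By role, the oxidizing and reducing enzymes had 5 rises and 9 falls over the populations, the glutathione transferases 4 and 6, the antioxidant and heme enzymes 5 and 3, the sensors 0 and 2 and the exporters 0 and 0. The 16 tested members without a call for E2 or P4 in any population were Arnt, Tiparp, Nfe2l2, Keap1, Nqo1, Cyp2f2, Gclc, Gclm, Srxn1, Slc7a11, Gsta4, Gstm5, Gstp1, Mgst3, Abcc1 and Abcg2. Cyp1a1, Ahrr, Nr1i2 and Nr1i3 did not pass the filter in any of these fits.

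The 5 members with the smallest adjusted p for E2 were all in Postn Tnc fibroblasts, and 4 of them fell. Gstm1, a mu-class transferase that couples electrophiles to glutathione, read 741, 793 and 939.9 CPM without hormone, 326, 344 and 434 CPM with E2 and 254, 322 and 347 CPM with E2 + P4, where the 3 values are now those without PBDE, at the low and at the high dose. Its log2 fold change was -1.36 ± 0.09 (SE), adjusted p = 4.18e-06. The theta-class transferase Gstt1 read 104, 151 and 156 CPM without hormone, 52.04, 41.7 and 71.6 CPM with E2 and 26.5, 37.1 and 29.1 CPM with E2 + P4, with -1.77 ± 0.15 (SE), adjusted p = 2.39e-05. For both, each of the 6 hormone libraries lay below each of the 3 without hormone. How many of all genes lay apart in this way was not counted, here or for the genes that follow. The 5 genes were also picked by their p on these same libraries. Ahr, whose values in this subset are given above, fell by 1.65 on the log2 scale (SE 0.16, adjusted p = 5.57e-05), again without overlap. Aox1, an aldehyde oxidase that also acts on many drugs, read 22.7, 26.6 and 22.4 CPM without hormone, 12.9, 11.6 and 15.3 CPM with E2 and 8.46, 10.3 and 9.06 CPM with E2 + P4, with -1.18 ± 0.14 (SE), adjusted p = 0.000204. Gsto1, the omega-class transferase that reduces dehydroascorbate and thiol adducts, was the member that rose, with 21.03, 22.3 and 25.6 CPM without hormone, 58.2, 45.6 and 48.5 CPM with E2 and 59.8, 55.8 and 52.2 CPM with E2 + P4 and 1.18 ± 0.12 (SE), adjusted p = 7.69e-05. The hormone libraries of Aox1 and Gsto1 also lay wholly apart from those without hormone. All 5 calls held under every alternative.

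Several other measures moved with E2 in Postn Tnc fibroblasts. The median UMIs per cell were 8092 to 9720.0 in the libraries without hormone and 13661 to 27664 with it. The 15 immediate early and heat shock genes that rise during tissue digestion all fell, their summed level being 28226 to 35178 CPM without and 10881 to 19821 CPM with hormone. The summed 6 gating markers of the subset were 2957 to 3234 CPM without and 4379 to 11066 CPM with it. In Fabp4 Lpl fibroblasts the digestion genes also stood apart, at 35279 to 42898 CPM without and 20517 to 31565 CPM with hormone, as did the summed 7 gating markers of that subset, at 7352 to 8360.2 and 9538 to 12965 CPM. In Dpp4 Pi16 fibroblasts the digestion genes overlapped at 13054 to 14367 and 11788 to 14253 CPM. Markers of other subsets moved too. The summed 6 Gdf10 F3 markers in Dpp4 Pi16 fibroblasts were 52.9 to 90.8 CPM without and 108 to 136 CPM with hormone. The Fabp4 Lpl markers in Postn Tnc fibroblasts were 1667 to 1882 CPM without and 2778 to 3498 CPM with hormone, and the Postn Tnc markers in Fabp4 Lpl fibroblasts 769.6 to 891 CPM without and 1019 to 4492 CPM with hormone. These ranges are over the 9 libraries of the layout. The NormEnv vehicle read 10025 UMIs per cell, 3331 CPM for the gating markers and 2274 CPM for the Fabp4 Lpl markers in Postn Tnc fibroblasts, between the libraries without and with hormone each time, and 10835 CPM for the digestion genes in Dpp4 Pi16 fibroblasts, below both. The part of depth, digestion, gating and other subsets in the member changes was not tested.

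Members named from here to the progesterone comparison were chosen after their values were seen. Gpx3, the secreted glutathione peroxidase, went in Dpp4 Pi16 fibroblasts from 922, 650.2 and 1123 CPM without hormone to 1751, 2132 and 2394 CPM with E2 and 3317, 3043 and 4649.7 CPM with E2 + P4, a log2 fold change of 1.63 ± 0.13 (SE), adjusted p = 0.00244. The NormEnv vehicle, which is not in that fit, read 1591 CPM, between the libraries without hormone and those with it. Fmo2 rose in the same subset with 11.6, 7.58 and 9.55 CPM without hormone, 15.4, 18.5 and 17.3 CPM with E2 and 47.4, 42.05 and 33.01 CPM with E2 + P4 and 1.47 ± 0.15 (SE), adjusted p = 0.00387, and Fmo1 with 29.1, 22.9 and 28.8 CPM without hormone, 46.2, 44.4 and 44.7 CPM with E2 and 48.6, 51.2 and 48.1 CPM with E2 + P4 and 0.80 ± 0.07 (SE), adjusted p = 0.00273. For all 3 the hormone libraries lay above those without hormone, given without the share of all genes that did so. Cyp7b1 rose as well, by 1.43 ± 0.31 (SE), adjusted p = 0.0285, and Aox1 and Gstm2 by 0.39 ± 0.08 (SE), adjusted p = 0.0228 and 0.37 ± 0.09 (SE), adjusted p = 0.0409. For Gstm2 the NormEnv vehicle read 156 CPM, inside the hormone range of 150.3 to 212 CPM. The members that fell in this subset were Ahr, with -1.22 ± 0.25 (SE), adjusted p = 0.0234, and the thioredoxin reductase Txnrd1, with -0.57 ± 0.08 (SE), adjusted p = 0.00786.

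Txnrd1, an NRF2 target, fell in 3 subsets, with -0.71 ± 0.12 (SE), adjusted p = 0.00149 in Postn Tnc and -0.40 ± 0.08 (SE), adjusted p = 0.0154 in Fabp4 Lpl. The Postn Tnc values were 98.4, 73.05 and 67.2 CPM without hormone, 57.4, 64.9 and 45.3 CPM with E2 and 44.4, 52.5 and 43.8 CPM with E2 + P4. These 9 libraries did not overlap, and the share of all genes without overlap was not counted. The NormEnv vehicle, which is not in the fit, read 52.7 CPM in Postn Tnc, 67.5 CPM in Fabp4 Lpl and 75.1 CPM in Dpp4 Pi16 fibroblasts, within the range of the hormone libraries in each. In Fabp4 Lpl fibroblasts Hmox1 rose by 0.64 ± 0.12 (SE), adjusted p = 0.0117, Gsto1 by 0.74 ± 0.12 (SE), adjusted p = 0.00585, Mgst1 by 0.46 ± 0.10 (SE), adjusted p = 0.017 and Cat by 0.41 ± 0.10 (SE), adjusted p = 0.0308, while Gstm1, Ephx1, Por and Cyp1b1 fell by 0.63, 0.54, 0.44 and 0.40 on the log2 scale with an adjusted p of 0.00351, 0.014, 0.024 and 0.0454. In Gdf10 F3 fibroblasts Cyp7b1 rose by 0.85 ± 0.17 (SE), adjusted p = 0.0346, and Gstm1 and Aox1 fell by 0.56 and 0.50 (adjusted p = 0.036 and 0.0497). These calls of Cyp7b1, Gstm1 and Aox1 were lost under 9, 8 and 14 of 20 alternatives, and that of Cyp1b1 in Fabp4 Lpl under 11. Gstm2 in Dpp4 Pi16 was lost under 9, Cat in Fabp4 Lpl under 8 and Txnrd1 in Fabp4 Lpl under 5. Ahr, Aox1 and Cyp7b1 in Dpp4 Pi16, Por in Fabp4 Lpl and Hmox1 in Postn Tnc were each lost under 6. The other E2 calls were lost under 3 or fewer. Of the 34 calls for E2, 16 held under every alternative. Among NRF2 targets Hmox1 thus rose and Txnrd1 fell in Fabp4 Lpl fibroblasts. The macrophage call was Gpx3, with 15.7, 13.4 and 17.99 CPM without hormone, 45.9, 49.6 and 75.7 CPM with E2 and 41.1, 37.8 and 67.8 CPM with E2 + P4 and 1.69 ± 0.21 (SE), adjusted p = 0.00432. That level is 2.40% of the fibroblast level, near that of the collagens given above. The red cell markers in macrophages read 7.83, 11.3 and 26.98 CPM without hormone and 1706, 1607 and 1651 CPM with E2. With E2 + P4 they read 28.6, 18.9 and 66.2 CPM, and what the shift means for Gpx3 was not tested.

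**Figure D4:**
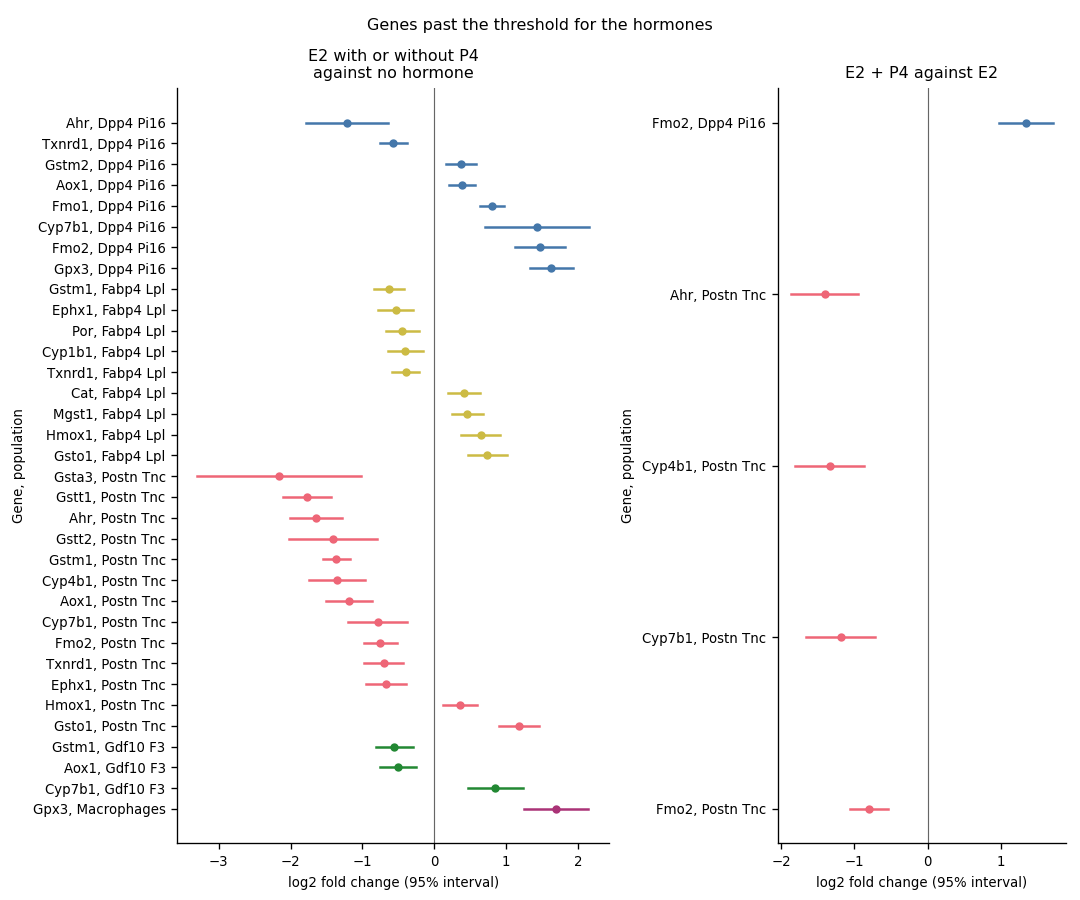
Log2 fold change with its 95% interval (horizontal axes) of each pair of a member and a population past the threshold, for E2 with or without P4 against no hormone (34 pairs) and for E2 + P4 against E2 (5 pairs), coloured by population. Gstm1, Gstt1 and Ahr fall in Postn Tnc fibroblasts, while Gpx3, Fmo1 and Fmo2 rise in Dpp4 Pi16 fibroblasts.

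Addition of P4 to E2 moved 5 of 159 pairs (3.14%, against 0.522% of all), 1 up and 4 down. DESeq2 called 14, given without its share of all genes. In Postn Tnc fibroblasts 4 of 34 members fell (2.04% of all genes were called and 1.2% fell). Ahr, whose levels in this subset stand above, fell by 1.41 on the log2 scale (SE 0.21, adjusted p = 0.012). Cyp4b1 read 110.04, 126 and 93.5 CPM without hormone, 50.6, 67.6 and 106 CPM with E2 and 27.96, 25.8 and 33.6 CPM with E2 + P4, with -1.34 ± 0.21 (SE), adjusted p = 0.0151. Fmo2 read 50.02, 67.5 and 50.6 CPM without hormone, 39.4, 50.8 and 47.5 CPM with E2 and 23.7, 33.1 and 22.5 CPM with E2 + P4, with -0.80 ± 0.12 (SE), adjusted p = 0.012. For these 3 genes each of the 3 E2 + P4 libraries lay below each E2 library. The share of all genes that lay apart in this way was not counted. The digestion genes stood apart as well, their summed level in Postn Tnc fibroblasts being 14628 to 19821 CPM with E2 and 10881 to 13919.8 CPM with E2 + P4, and 2 of 15 (Hspa1b and Jun) were called lower, with a median log2 fold change of -0.57. The Fabp4 Lpl markers in Postn Tnc fibroblasts were also apart, at 2778, 2837 and 3303 CPM with E2 and 3394, 3417 and 3498 CPM with E2 + P4. The gating markers of the subset itself read 4879, 4379 and 9301 CPM with E2 and 9282, 9690 and 11066 CPM with E2 + P4. They were higher with P4 at each PBDE level. The part of the digestion genes and of these markers in the falls was not tested. Cyp7b1 read 12.5, 14.3 and 10.9 CPM without hormone, 9.00, 15.2 and 11.1 CPM with E2 and 4.93, 4.77 and 5.88 CPM with E2 + P4, with -1.19 ± 0.21 (SE), adjusted p = 0.0221, and its E2 + P4 libraries also lay below those with E2. The single rise was Fmo2 in Dpp4 Pi16 fibroblasts (0.0855% of all genes called, 0.0777% higher), whose values stand above, with 1.33 ± 0.16 (SE), adjusted p = 0.0462. In that subset the digestion genes read 14116, 14138 and 14253 CPM with E2 and 13031, 12851 and 11788 CPM with E2 + P4. The Fabp4 Lpl markers there read 407, 357 and 337 CPM with E2 and 433, 459 and 480.2 CPM with E2 + P4. Neither overlapped, and their part in the rise was not tested. No member was called in Fabp4 Lpl, Gdf10 F3 or macrophages (0.285, 0.0429 and 0.0861% of all genes). Mgst1 in Postn Tnc fibroblasts, next in order, had an adjusted p of 0.056. None of the 5 calls held under every alternative. The number of calls was 0 without VCD_E2_P4 or without VCD_Low_E2_P4, 1 without VCD_E2, 2 without VCD_Low_E2 and 8 without VCD_High_PBDE_E2.

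**Figure D5:**
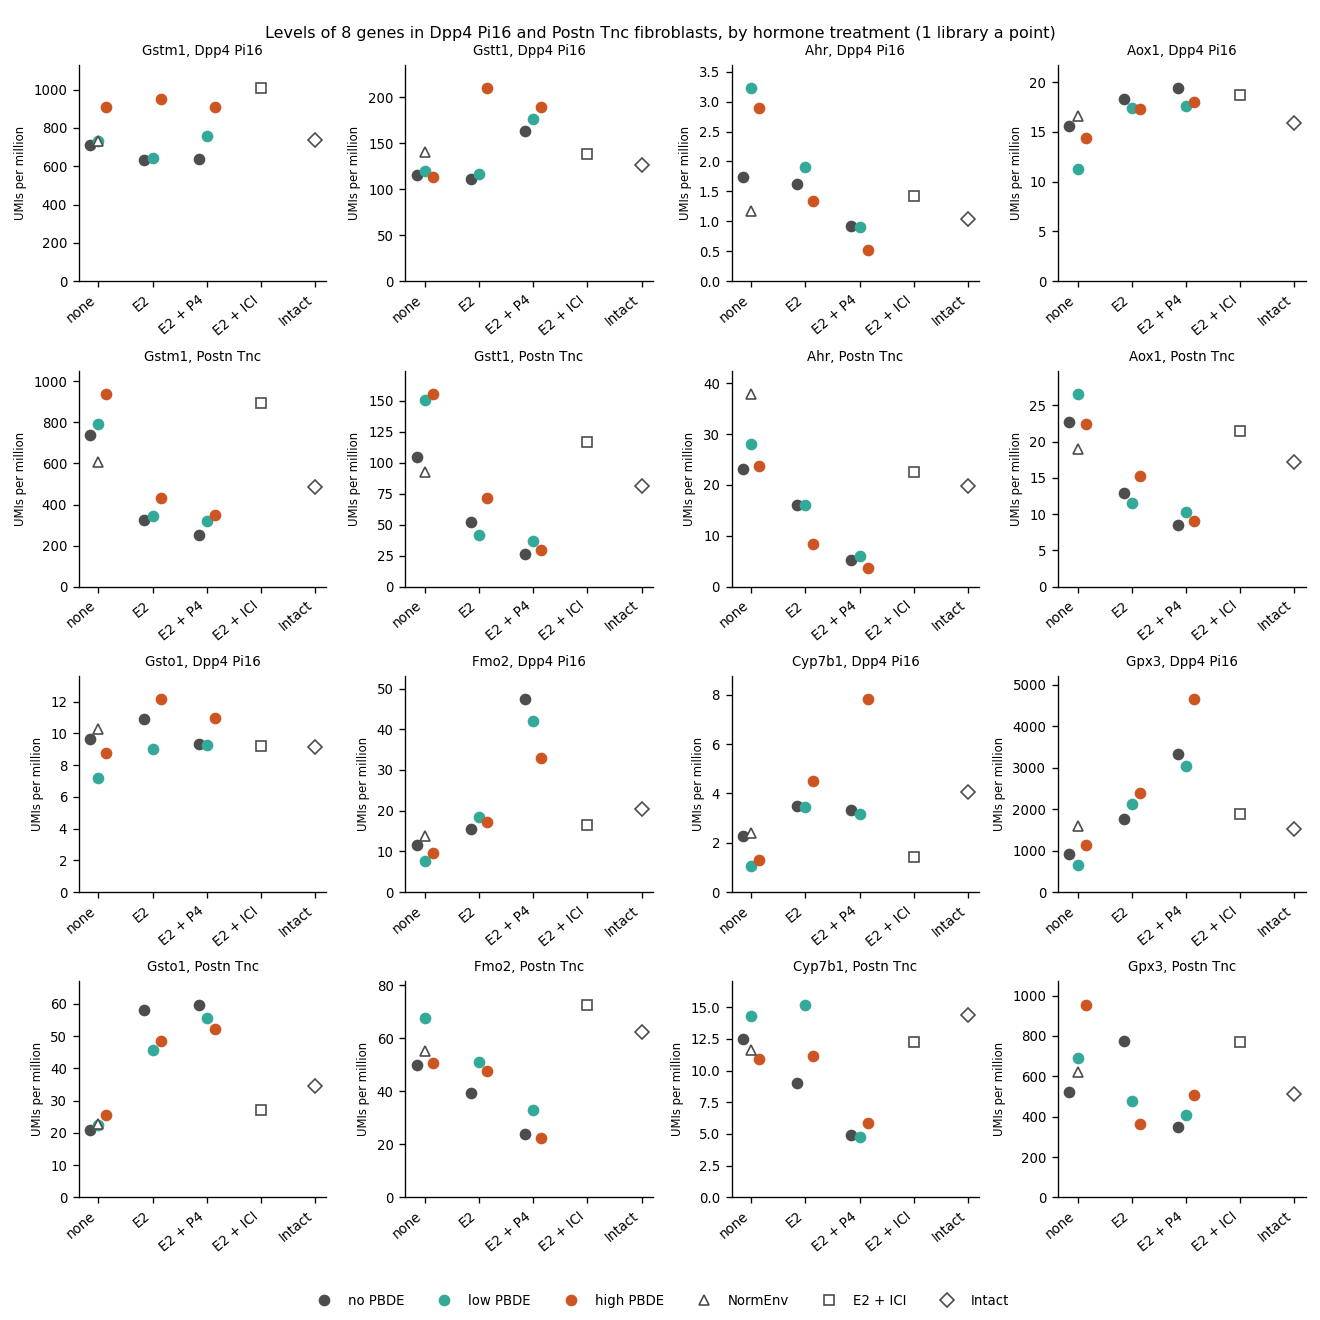
Levels (CPM of UMIs, vertical axes from 0) of Gstm1, Gstt1, Ahr, Aox1, Gsto1, Fmo2, Cyp7b1 and Gpx3 in Dpp4 Pi16 and Postn Tnc fibroblasts, by hormone treatment, with 1 point per library and its PBDE level by colour. Gstm1 lies between 741 and 939.9 CPM without hormone and between 254 and 434 CPM with it in Postn Tnc fibroblasts.

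For part of the members the response to hormones differed between the 4 fibroblast subsets. An interaction test gave 17 of 36 members for E2 (47.2%, against 27.5% of all genes) and 9 of 36 for P4 (25%, against 5.03%). Gpx3 and Fmo2 were among them, each called higher with E2 in Dpp4 Pi16 fibroblasts, and Fmo2 called lower in Postn Tnc. For Gpx3 the log2 fold change in Postn Tnc fibroblasts was -0.65 ± 0.24 (SE), adjusted p = 0.062. The interaction test was added after the hormone results were seen. Depth per cell, digestion genes and gating markers also moved with hormone in Postn Tnc fibroblasts, and their part in these differences was not tested.

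Other genes of the same pathways were counted on lists that hold no member. Under low PBDE 0 genes of any list passed the threshold in any population. Under high PBDE the thioredoxin gene Txn1, on the NRF2 and on the peroxide list, was lower in Fabp4 Lpl fibroblasts, 1 of 24 and 1 of 20 genes tested, and the heat shock gene Hspa1b of the digestion list was higher in Gdf10 F3 fibroblasts and in macrophages, 1 of 15 each. Of the targets of AhR, CAR and PXR that are no members, 6 to 10 of 20 passed the filter in a population, and 0 passed the threshold for either dose. Under E2 in Postn Tnc fibroblasts, where 16.8% of all genes tested rose and 16.1% fell, 3 other NRF2 targets rose and 8 fell of 24, with a median log2 fold change of -0.21. The same list had 3 rises and 1 fall of 25 in Dpp4 Pi16 (median 0.01), 1 and 5 of 24 in Fabp4 Lpl (median 0.0013), and 0 calls of 25 in Gdf10 F3 fibroblasts (median 0.13) and of 20 in macrophages (median 0.05). In Postn Tnc fibroblasts 2 rose and 4 fell of 7 targets of AhR, CAR and PXR. Of the 20 other peroxide and superoxide enzymes 6 rose and 4 fell there, and in Dpp4 Pi16 fibroblasts 5 rose and 0 fell (5.66% and 5.04% of all genes). Of the ATF4 genes of amino acid stress 5 rose and 3 fell of 12 in Postn Tnc fibroblasts. Interferon genes rose with E2, 6 of 10 in Dpp4 Pi16, 7 in Fabp4 Lpl, 9 in Gdf10 F3, 1 in Postn Tnc fibroblasts and 3 in macrophages, with 0 falls, where 5.66, 5.6, 1.82, 16.8 and 0.271% of all genes rose.

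The estrogen receptor antagonist and the intact ovary were each seen in 1 library, without a test. With ICI, against VCD_E2, 38 of 159 values differed by 1.5-fold (23.9%, against 21.4% of all genes), and between Intact and VCD_Vehicle 24 of 159 did (15.1%, against 15.1%). In Postn Tnc fibroblasts Gstm1 read 326 CPM with E2, 896 CPM with E2 and ICI and 741 CPM with vehicle. Gstt1 read 52.04, 117 and 104 CPM in the same order, and Gsto1 58.2, 27.02 and 21.03 CPM. For these 3 members the ICI library lay nearer to the vehicle than to E2. So did other measures of that subset. The digestion genes read 19025, 28990.5 and 28226 CPM with E2, with ICI and with vehicle, the gating markers 4879, 3828 and 3234 CPM, and the median UMIs per cell were 17274, 11313 and 8092. Their part was not tested. Gpx3 in Dpp4 Pi16 fibroblasts, with 1751, 1877 and 922 CPM, lay near E2, and NormEnv, the vehicle of the same name code as the ICI library, read 1591 CPM. The intact mice read 488 CPM for Gstm1 and 81.5 CPM for Gstt1 in Postn Tnc fibroblasts, between the libraries with and without hormone, and 1515 CPM for Gpx3 in Dpp4 Pi16 fibroblasts.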

How the data were processed

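Single-cell suspensions were run on Chromium v3 3′ kits, and the authors aligned and counted reads with Cell Ranger 3.1.0 on mm10, per the labels. The deposited files hold raw UMI counts per gene and cell barcode, not normalized. The sequencer is given as HiSeq in the labels and NovaSeq in the methods. Cells with under 500 genes, under 1000 UMIs or over 5% mitochondrial UMIs were left out, as in the study. Fibroblasts had UMIs of at least 3 of the genes Col1a1, Col1a2, Pdgfra and Dcn. They had none of the epithelial, immune, endothelial and pericyte markers Epcam, Krt14, Cd52, Ptprc, Pecam1 and Cspg4, and a limit was set on Schwann and further endothelial markers. They were assigned to the subset whose scaled marker score led by 0.5 SD (5962 were left ungated). Macrophages needed 3 UMIs of C1q genes and at most 5 collagen and decorin UMIs per 1000. Doublets were not called, since the gates exclude markers of other lineages, and the top 5% of cells by UMIs were left out as an alternative. Cells are no replicates: counts were summed per library and population. The sums went into edgeR 4.0.16 (TMM, filterByExpr, glmQLFit) in R 4.3.3 with hormone and PBDE terms over 9 libraries, Benjamini-Hochberg adjusted over all genes of a population at 0.05. DESeq2 1.42.0 was an alternative. Exact Poisson intervals were at 95% and floors at 3 counts. The scripts were tested on simulated data.

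The members and lists were chosen with earlier results of these data known. Named with values were the sensors and best known targets (Ahr, Ahrr, Tiparp, Cyp1a1, Cyp1b1, Nqo1, Hmox1, Nr1i2, Nr1i3) in populations where 1 library reached 10 UMIs, any member called for PBDE, the 5 smallest adjusted p per hormone contrast past the threshold, and the 3 largest log2 fold changes per population. Alternatives were DESeq2, no filter on low counts, other gate margins, a 10% mitochondrial limit, stricter macrophages, cells with shared barcodes left out, other vehicles, the name code as a term, a 2-fold limit and leaving out each library. The hormone interaction test was added after the hormone results were seen. Sequences were matched by symbol to the RefSeq promoter table, in which 32 of the 40 members had a window.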

Additional observations from a re-analysis of the deposited data

Results flagged for a closer look

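These members stand out because the effect of a hormone differed between the 4 fibroblast subsets by an interaction test over all genes with edgeR. For E2, with or without P4, against no hormone they were Gstt1 (adjusted p = 2.01e-07), Gstm1 (adjusted p = 2.78e-07), Gstt2 (adjusted p = 3.15e-06), Gpx3 (adjusted p = 5.64e-06), Ephx1 (adjusted p = 1.99e-05), Aox1 (adjusted p = 4.81e-05), Fmo2 (adjusted p = 5.67e-05), Cyp4b1 (adjusted p = 9.63e-05), Cyp7b1 (adjusted p = 0.000115), Mgst1 (adjusted p = 0.000207), Gsto1 (adjusted p = 0.000229), Gstm2 (adjusted p = 0.00223), Mgst3 (adjusted p = 0.00266), Fmo1 (adjusted p = 0.00274), Tiparp (adjusted p = 0.00655), Cat (adjusted p = 0.015), Por (adjusted p = 0.0283). For E2 + P4 against E2 they were Por (adjusted p = 0.00151), Gstt2 (adjusted p = 0.00175), Ephx1 (adjusted p = 0.00182), Gstt1 (adjusted p = 0.00272), Fmo2 (adjusted p = 0.00581), Cyp4b1 (adjusted p = 0.00722), Gstm1 (adjusted p = 0.0151), Mgst1 (adjusted p = 0.0203), Gpx3 (adjusted p = 0.0282). For Gstt1, Gstm1, Gstt2 and Ephx1 the E2 log2 fold changes in Dpp4 Pi16 and Postn Tnc fibroblasts were 0.41 and -1.77, -0.08 and -1.36, 0.41 and -1.41, and 0.21 and -0.67. Depth per cell, digestion genes and gating markers moved with hormone in Postn Tnc fibroblasts as given in the report, and their part in these differences was not tested.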

How the results depend on the processing

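Each condition was 1 library, so leaving out a library removes a condition, and depth limits members with few counts, such as Ahr, Ahrr and Nqo1. High PBDE, with 0 calls, gave 7 with DESeq2, 6 without the filter on low counts and 1 with a doubled gate margin, and 0 to 1 when 1 library was left out (1 without VCD_High_PBDE and 1 without VCD_High_PBDE_E2_P4). Low PBDE stayed at 0 calls in every alternative run. E2 had 34 calls and 17 to 41 with 1 library left out, 17 being without VCD_Low_PBDE, and 16 of the 34 were kept under every alternative. P4 had 5 calls, against 14 with DESeq2, 18 without the filter, 2 without a gate margin and 9 without the top 5% of cells, and 0 to 8 with 1 library left out. The difference of the PBDE effect between subsets had 0 calls, 1 with DESeq2 and 0 to 1 with 1 library left out (Tiparp, without VCD_Low_PBDE). Calls between fibroblast subsets numbered 107, and 105 to 108 with 1 library left out, and those of macrophages 35, and 34 to 36. Single pairs past the limit numbered 179, against 57 at 2-fold. Why these counts moved was not tested, and the shares of all genes under each alternative are not given beside them. Of the values of single members that were called for a hormone or between populations, or are named for PBDE, over the alternatives, 4519 kept their side of the threshold, 177 lost the call and 16 gained it, all at the high dose and in Gstp1, Gstm1, Gsta3, Cat, Tiparp and Slc7a11. No called value turned direction, whereas values that were not called could, such as Tiparp at the high dose in Fabp4 Lpl fibroblasts, with a log2 fold change of -0.11 and of 0.05 with NormEnv as the vehicle. The labels give no replicate numbers that could serve as a block, and the PBDE fits took the hormone treatment as one.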
